A study of Mus musculus with 18 samples.

Results

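Freshly sorted long bone cells of Col2.3GFP mice were compared as a GFP+ (hi) population and a GFP- population, using every gene of the fresh bone count table. The 6 libraries, 3 per population, were chosen by their labels from the 18 libraries of the series. Col2.3GFP mice carry a transgene that makes green fluorescent protein (GFP) from a fragment of the *Col1a1* promoter, which is active in maturing cells of the osteoblast lineage, and both populations came from such mice. The GFP+ (hi) cells were those with the brightest fluorescence, which the study took as late-stage osteoblasts. The GFP- cells were labelled only as a heterogeneous population without GFP, so they are a mixture of long bone cells whose makeup the labels do not give. No age, sex or number of animals is given in the sources used here, and the labels do not say whether the libraries of a group came from separate mice, so the p-values below measure the spread between these libraries, which may be technical. Cells of intermediate brightness, GFP+ (lo), were not analysed here. Poly-A RNA was sequenced as paired-end reads.

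Osteoblasts build bone by secreting type I collagen in bulk, crosslinking it outside the cell and letting mineral form on it, and some of them are buried in that matrix and become osteocytes. Runx2 and Sp7 are the transcription factors that the lineage depends on, *Bglap* (osteocalcin) marks mature osteoblasts, and *Dmp1*, which encodes an acidic mineral-binding matrix protein, marks osteocytes and the cells about to become them. Chondrocytes of the growth plate and joint surface, which make type II collagen (*Col2a1*), lie next to bone in the same tissue. The study profiled GFP+ cells in search of genes with a part in osteoblast function, and the GFP- cells sorted from the same tissue serve here as the comparison.

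The GFP+ (hi) libraries held 43874837, 21425212 and 30231520 counts in replicates 1 to 3, against 6429881, 5482065 and 6468750 counts in GFP- replicates 1 to 3. Per-library values below follow that order. Levels are given as CPM, counts put on a common library size that was scaled by the trimmed mean of M-values (TMM), which discounts the genes that differ most. Since 10 genes took 65.3% to 66.3% of all GFP+ (hi) counts, the scaled library sizes of that group were smaller than the raw totals (TMM factors 0.683 to 0.711 in GFP+ (hi) libraries and 1.32 to 1.60 in GFP- libraries), and CPM values of the most abundant genes exceed their plain share of counts. Transcripts of the Y chromosome differed among the GFP+ (hi) libraries. *Ddx3y* had 6, 516 and 5 counts in GFP+ (hi) cells, against 535, 882 and 379 counts in GFP- cells, and *Xist*, the transcript of the inactive X, had 741, 22 and 348 counts in GFP+ (hi) cells, against 0, 2 and 10 counts in GFP- cells. GFP+ (hi) replicates 1 and 3 therefore differed from all GFP- libraries in both transcripts, and for them the sex of the animals and GFP cannot be told apart. In bulk RNA, fewer cells of a type and less RNA per cell cannot be told apart either.

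The marker genes separated the populations in the direction of their labels. *Col1a1*, which encodes the alpha-1 chain of type I collagen, had 508783, 548101 and 531846 CPM in GFP+ (hi) cells, against 5688, 5361 and 12036 CPM in GFP- cells. It took 36.2% to 37.5% of all GFP+ (hi) counts, and the groups were far apart (log2 fold change 6.10 ± 0.42 (SE), adjusted p = 5.0e-06, edgeR quasi-likelihood test). The sort used a fragment of this gene's own promoter, so its rise describes the gate. *Col1a1* lies at chr11:94797538-94814356 on the plus strand of mm9.

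*Bglap*, the osteocalcin gene of mature osteoblasts, had 54407, 54127 and 75204 CPM in GFP+ (hi) cells, against 77.99, 97.9 and 102 CPM in GFP- cells (log2 fold change 9.37 ± 0.32). *Dmp1*, at chr5:104631632-104643121 on the plus strand, had 4405, 6888 and 6382 CPM in GFP+ (hi) cells, against 3.295, 12.1 and 8.18 CPM in GFP- cells (log2 fold change 9.55 ± 0.51). Both genes were at trace level in every GFP- library and abundant in every GFP+ (hi) library. *Col2a1*, the type II collagen gene of cartilage at chr15:97806033-97835155 on the minus strand, went the other way, with 4070.4, 2606 and 1654 CPM in GFP+ (hi) cells, against 161290.2, 85628 and 181799 CPM in GFP- cells (log2 fold change -5.69 ± 0.46, adjusted p = 1.3e-05, edgeR). It took the most counts of any gene in GFP- cells, and GFP+ (hi) replicate 1 held the most of it among GFP+ (hi) libraries.

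**Figure D1:**
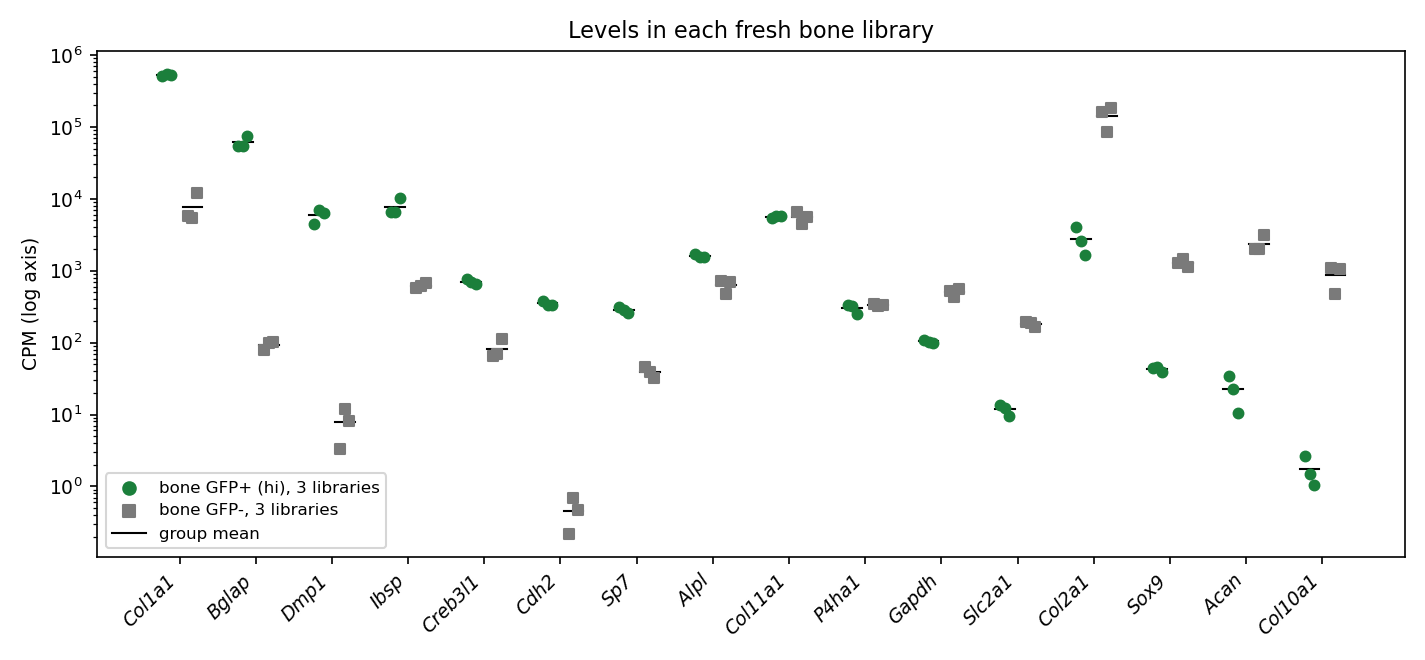
Levels of 16 genes in each fresh bone library, in CPM on a log axis; green circles are the 3 GFP+ (hi) libraries, grey squares the 3 GFP- libraries and black bars the group means. *Col1a1* sits between 508783 and 548101 CPM in GFP+ (hi) libraries and between 5361 and 12036 CPM in GFP- libraries, *Col2a1* shows the opposite order, and the groups overlap for *Col11a1* and *P4ha1*.

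The osteocalcin gene *Bglap* and its neighbour *Bglap2* are near-identical copies on the minus strand of chromosome 3 of mm9, at chr3:88187423-88188386 and chr3:88181658-88182621. Their coding sequences, 288 bases each in the GENCODE vM1 annotation, are shown because they limit what a read can tell about each gene. Capitals mark the 4 positions at which the copies differ.
Bglap: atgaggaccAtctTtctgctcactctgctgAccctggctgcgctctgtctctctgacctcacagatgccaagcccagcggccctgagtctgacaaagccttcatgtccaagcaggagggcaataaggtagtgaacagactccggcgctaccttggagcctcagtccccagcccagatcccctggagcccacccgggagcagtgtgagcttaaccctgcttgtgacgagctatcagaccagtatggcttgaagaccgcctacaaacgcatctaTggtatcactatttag
Bglap2: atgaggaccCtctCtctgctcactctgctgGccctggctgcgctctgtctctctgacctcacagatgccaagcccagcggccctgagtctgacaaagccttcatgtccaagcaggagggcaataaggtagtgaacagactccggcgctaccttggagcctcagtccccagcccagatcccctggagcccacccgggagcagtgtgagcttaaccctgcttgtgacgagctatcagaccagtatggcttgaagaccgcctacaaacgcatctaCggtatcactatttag
*Bglap* and *Bglap2* shared 98.6% of their bases, with 4 differences and an identical run of 241 bases. How reads that match both copies were counted is not given in the sources used here, so the split between copies, and with it the value of each copy, is uncertain.

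*Bglap2* had 22667, 22643 and 31309 CPM in GFP+ (hi) cells, against 37.7, 51.8 and 55.4 CPM in GFP- cells (log2 fold change 9.05 ± 0.32). Both copies were higher in every GFP+ (hi) library than in any GFP- library, and in both GFP+ (hi) replicate 3 was the highest.

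Of 17173 genes in the table, 12559 passed the filter on low counts. With an adjusted p under 0.05, 2455 genes (19.5%) were called higher and 2776 genes (22.1%) were called lower in GFP+ (hi) cells, so 41.7% of tested genes were called. Changes of at least 4-fold were more numerous downward, with 672 of the higher genes and 1501 of the lower genes reaching that size. The libraries of the groups did not overlap for 7020 genes (55.9%), and the median log2 fold change over all tested genes was -0.0013. When GFP+ (hi) replicate 2, the library with Y-linked transcripts, was the only GFP+ (hi) library in the fit, 1495 genes were called higher and 1793 lower. In that fit 3181 of the 5231 calls were made again in the same direction and none in the opposite one, the lone library being assumed to vary like the others.

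**Figure D2:**
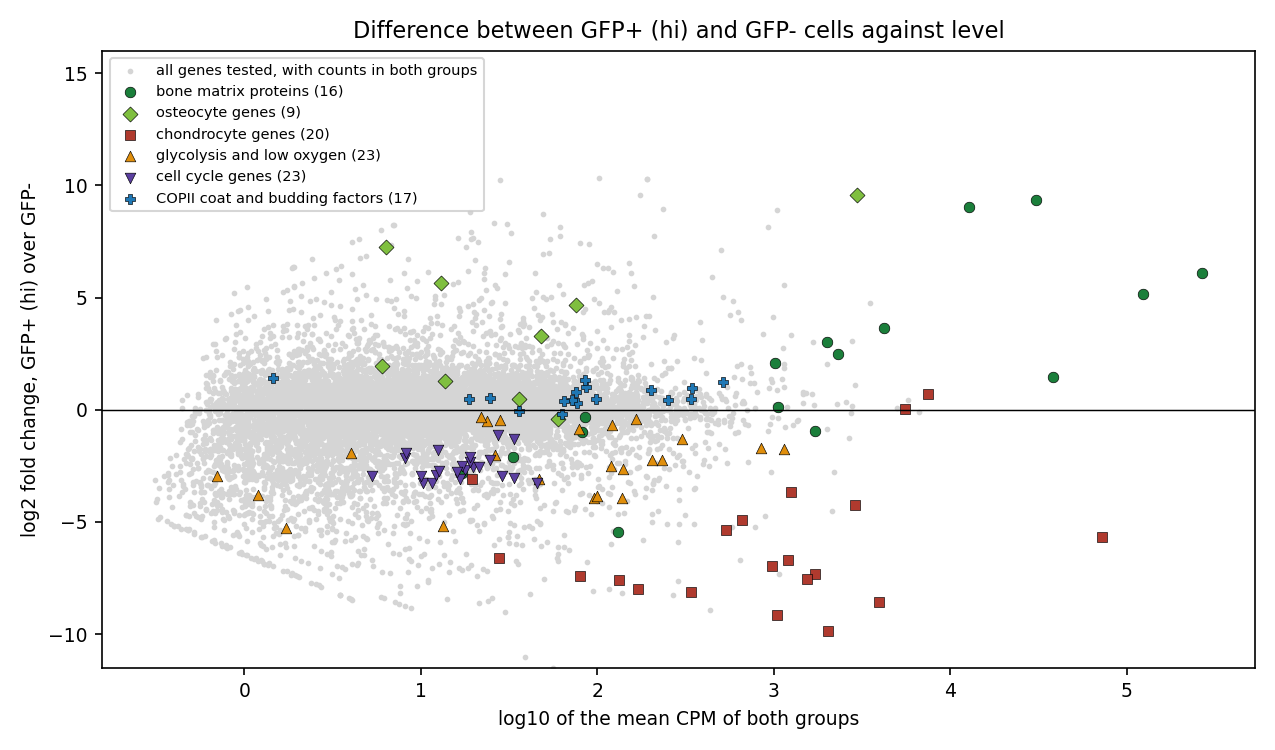
Log2 fold change of GFP+ (hi) over GFP- cells (vertical axis) against the log10 mean CPM of both groups (horizontal axis) for tested genes with counts in both groups; coloured symbols mark members of 6 gene lists, with the number of members shown in parentheses. Bone matrix genes reach the upper right, the chondrocyte list lies below the line except for *Col11a1* and *Col11a2*, and the COPII list stays close to it with a median of 0.50.

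The bone matrix genes with most counts were higher in GFP+ (hi) cells. Of 16 genes for matrix proteins, 9 were called higher, 5 lower and 2 were not called, with a median log2 fold change of 1.78. *Col1a2*, the partner chain of *Col1a1*, had 243349, 251139.7 and 226987 CPM in GFP+ (hi) cells, against 6166, 4853 and 9420.1 CPM in GFP- cells (log2 fold change 5.14 ± 0.33). *Ibsp*, the bone sialoprotein that nucleates mineral, had 6462, 6651 and 10201 CPM in GFP+ (hi) cells, against 583, 616 and 667 CPM in GFP- cells, with a log2 fold change of 3.64 ± 0.24. For *Spp1* (osteopontin) the values were 3898, 4169.6 and 2570.0 CPM in GFP+ (hi) cells, against 424, 419 and 485 CPM in GFP- cells, an 8.01-fold difference. None of these groups overlapped.

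*Sparc* (osteonectin), which binds collagen and calcium, was abundant in both populations, with 55541, 52907 and 59169.9 CPM in GFP+ (hi) cells, against 18231, 15781 and 26474 CPM in GFP- cells (log2 fold change 1.47 ± 0.24). The proteoglycan genes *Dcn* and *Lum* were also called higher (log2 fold changes 2.49 ± 0.19 and 2.09 ± 0.17), whereas *Bgn* had a value of 0.14 ± 0.19 and was not called. The members called lower were *Fn1* (fibronectin, -0.93 ± 0.21), *Omd* (-0.99 ± 0.17), *Ogn* (-2.12 ± 0.21), *Aspn* (-2.82 ± 0.22) and *Mgp* (-5.47 ± 0.38). *Mgp* encodes matrix Gla protein, which holds back the calcification of cartilage and arteries, and its mean was 5.85 CPM in GFP+ (hi) cells and 256 CPM in GFP- cells. *Serpinf1*, which encodes pigment epithelium-derived factor and whose loss causes brittle bone in humans, was among the 10 genes with most counts in GFP+ (hi) cells, at 6326, 6723 and 7165 CPM in GFP+ (hi) cells, against 226, 207 and 317 CPM in GFP- cells (log2 fold change 4.75 ± 0.23).

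Genes that handle mineral and phosphate split in direction. Of 14 tested, 8 were called higher, 5 lower and 1 was not called (median 1.03). *Enpp6*, a choline-specific phosphodiesterase, had 124, 117 and 126 CPM in GFP+ (hi) cells, against 0.11, 0.457 and 0.701 CPM in GFP- cells (log2 fold change 8.17 ± 0.32). *Ifitm5*, a membrane protein of bone-forming osteoblasts, had 371, 368 and 518 CPM in GFP+ (hi) cells, against 2.09, 1.71 and 1.99 CPM in GFP- cells (log2 fold change 7.76 ± 0.25). Their groups were separated by more than 100-fold in the fit. *Phex*, an endopeptidase whose loss causes phosphate wasting, had 154, 121 and 162 CPM in GFP+ (hi) cells, against 2.53, 7.42 and 7.48 CPM in GFP- cells (log2 fold change 4.65 ± 0.35), and the vitamin D receptor gene *Vdr* rose by 2.74 ± 0.27 on the log2 scale. *Alpl*, the tissue-nonspecific alkaline phosphatase that removes the mineralization inhibitor pyrophosphate, was well expressed in both populations, with 1695, 1569.8 and 1555 CPM in GFP+ (hi) cells, against 710.2, 473 and 695 CPM in GFP- cells (log2 fold change 1.36 ± 0.19).

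The members called lower were *Slc20a1*, *Enpp1*, *Slc20a2*, *Ank* and *Smpd3*. *Slc20a1*, a sodium-dependent phosphate importer, had 11.2, 9.902 and 9.29 CPM in GFP+ (hi) cells, against 138, 371 and 247 CPM in GFP- cells (log2 fold change -4.64 ± 0.35). *Enpp1*, which makes pyrophosphate, had 27.3, 26.8 and 10.97 CPM in GFP+ (hi) cells, against 131, 249 and 162 CPM in GFP- cells (log2 fold change -3.06 ± 0.37). *Ank*, which moves pyrophosphate precursors out of the cell, had a smaller value of -0.89 ± 0.28. It was not called without GFP- replicate 3 (-0.52, edgeR adjusted p = 0.12), without GFP+ (hi) replicate 1 (-0.97, edgeR adjusted p = 0.051), without GFP+ (hi) replicate 3 (-0.70, edgeR adjusted p = 0.066) or under 3 other alternatives. Thus *Alpl* was higher and *Enpp1* was lower in GFP+ (hi) cells, and the call of *Ank* depended on single libraries.

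Osteocyte genes were higher as a group but at unequal levels. Of 9 tested, 8 were called higher, none lower, and *Tnfrsf11b* (osteoprotegerin) was not called (-0.40 ± 0.19); the median log2 fold change was 3.29. *Dkk1*, a secreted Wnt antagonist, had 14.4, 11.3 and 12.5 CPM in GFP+ (hi) cells, against 0, 0.114 and 0.117 CPM in GFP- cells, which is 2 counts over all GFP- libraries. With so few GFP- counts, *Dkk1* could pass the filter on low counts only through GFP+ (hi) libraries. *Ptprz1*, a receptor phosphatase, had 29.9, 22.8 and 23.8 CPM in GFP+ (hi) cells, against 0.22, 0.114 and 1.17 CPM in GFP- cells (log2 fold change 5.67 ± 0.52). The homeobox gene *Irx5* rose by 3.29 ± 0.28 on the log2 scale, with means of 87.0 CPM in GFP+ (hi) cells and 8.88 CPM in GFP- cells.

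*Mepe* and *Sost*, genes of embedded osteocytes, were measured at low levels, whereas *Dmp1* and *Phex* of the same list had higher levels in GFP+ (hi) cells. *Mepe*, which encodes a matrix phosphoglycoprotein, had 6.601, 11.6 and 10.6 CPM in GFP+ (hi) cells, against 1.54, 3.08 and 2.69 CPM in GFP- cells (log2 fold change 1.97 ± 0.39). *Sost*, the sclerostin gene, which is used as a marker of mature osteocytes, had 12 counts over the 3 GFP+ (hi) libraries and 0 counts over the 3 GFP- libraries and did not pass the filter.

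Of 14 osteogenic transcription factor genes tested, 10 were called higher, 1 lower and 3 were not called (median 1.69). *Sp7* (osterix) had 315, 286 and 257 CPM in GFP+ (hi) cells, against 45.3, 39.6 and 32.5 CPM in GFP- cells (log2 fold change 2.87 ± 0.18). *Runx2* had a smaller difference, with 79.7, 65.6 and 75.2 CPM in GFP+ (hi) cells, against 25.04, 19.99 and 24.1 CPM in GFP- cells (log2 fold change 1.67 ± 0.17). The groups did not overlap for either gene, and both were present in every GFP- library.

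*Creb3l1* (OASIS), an endoplasmic reticulum (ER) bound factor that drives type I collagen genes, had 757, 688 and 662 CPM in GFP+ (hi) cells, against 65.9, 69.4 and 111 CPM in GFP- cells (log2 fold change 3.10 ± 0.22). *Dlx3*, *Tcf7*, *Twist1*, *Dlx5*, *Fosl2* and *Mef2c* were called higher, with log2 fold changes between 1.19 for *Mef2c* and 2.50 for *Dlx3*. *Lef1*, which acts with beta-catenin, was the member called lower, at 5.703, 3.76 and 1.299 CPM in GFP+ (hi) cells, against 37.8, 40.7 and 32.5 CPM in GFP- cells (log2 fold change -3.34 ± 0.43). *Atf4*, *Msx1* and *Msx2* had values of -0.42 ± 0.18, -0.89 ± 0.41 and 0.46 ± 0.48 and were not called.

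The fibrillar collagens divided in direction. Of 11 tested, 5 were called higher (*Col1a1*, *Col1a2*, *Col5a1*, *Col5a2* and *Col24a1*), 4 were called lower (*Col2a1*, *Col27a1*, *Col5a3* and *Col3a1*) and *Col11a1* and *Col11a2* were not called. *Col5a2*, a chain of the type V collagen that sets the diameter of type I fibrils, had 5247, 5018 and 4653 CPM in GFP+ (hi) cells, against 563, 455 and 765 CPM in GFP- cells (log2 fold change 3.06 ± 0.23). *Col24a1*, a minor fibrillar collagen of bone, had 159, 172 and 159 CPM in GFP+ (hi) cells, against 5.49, 4.57 and 11.6 CPM in GFP- cells (log2 fold change 4.50 ± 0.32). Chains of type XI collagen, which copolymerizes with type II collagen in cartilage, did not follow *Col2a1*.

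*Col11a1* had 5483, 5738 and 5747 CPM in GFP+ (hi) cells, against 6528, 4418 and 5563 CPM in GFP- cells (log2 fold change 0.038 ± 0.19). *Col11a2* had 9099, 9611 and 8958 CPM in GFP+ (hi) cells, against 6372, 1619 and 9010.5 CPM in GFP- cells (log2 fold change 0.70 ± 0.48), with GFP- replicate 2 far below the other GFP- libraries. The groups overlapped for both. *Col3a1*, the type III collagen gene of loose connective tissue, was called lower (log2 fold change -1.25 ± 0.40), yet its libraries overlapped, with 1159, 2697 and 926 CPM in GFP+ (hi) cells, against 3540.5, 2613 and 5201 CPM in GFP- cells. GFP+ (hi) replicate 2 was the high one, and it was also the GFP+ (hi) library with most of the fibroblast genes *Cd34* (0.192, 6.49 and 0.289 CPM in GFP+ (hi) cells, against 26.9, 24.2 and 31.2 CPM in GFP- cells) and *Pi16* (0.0961, 3.76 and 0.0963 CPM in GFP+ (hi) cells, against 17.9, 9.71 and 22.5 CPM in GFP- cells); the part of such cells in the *Col3a1* value was not tested.

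Of 18 other collagen genes, 2 were called higher, 15 lower and 1 was not called (median -2.41). The higher ones were *Col13a1*, a transmembrane collagen, with 287, 300.0 and 313 CPM in GFP+ (hi) cells, against 4.17, 1.94 and 3.39 CPM in GFP- cells (log2 fold change 6.56 ± 0.26), and *Col22a1*, known from tissue junctions, with 999.8, 989 and 1036 CPM in GFP+ (hi) cells, against 34.7, 22.4 and 36.9 CPM in GFP- cells (log2 fold change 5.01 ± 0.23). Every GFP+ (hi) library of these genes was above every GFP- library. The largest falls were in *Col10a1* (log2 fold change -8.91 ± 0.49) and in the type IX chains *Col9a1*, *Col9a2* and *Col9a3* (-7.32 ± 0.89, -7.54 ± 0.93 and -8.57 ± 0.84), which coat type II fibrils. Basement membrane *Col4a1* and *Col4a2* and the pericellular *Col6a1*, *Col6a2* and *Col6a3* were also called lower, between -3.49 for *Col4a1* and -2.03 for *Col6a3*.

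Enzymes that modify and process procollagen did not move together. Of 29 tested, 8 were called higher, 12 lower and 9 were not called (median -0.14). Members that process or crosslink collagen after its synthesis were found among the genes called higher and among those called lower. *Lox*, the lysyl oxidase that starts collagen crosslinks, had 2305, 2297 and 2159.9 CPM in GFP+ (hi) cells, against 51.4, 46.9 and 45.3 CPM in GFP- cells (log2 fold change 5.55 ± 0.18). *Adamts2*, which removes the N-propeptide of procollagen, had 1141, 1251 and 1218 CPM in GFP+ (hi) cells, against 41.2, 44.7 and 90.9 CPM in GFP- cells (log2 fold change 4.35 ± 0.32). *Bmp1*, which removes the C-propeptide, rose by 3.38 ± 0.21 on the log2 scale, and its enhancer *Pcolce* by 1.87 ± 0.20. Some paralogs of these genes were called lower. Log2 fold changes were -3.26 ± 0.19 for *Pcolce2* and -2.70 ± 0.31, -1.28 ± 0.19 and -1.25 ± 0.19 for the lysyl oxidase-like genes *Loxl1*, *Loxl3* and *Loxl4*. Other paralogs had positive fresh bone values, 2.68 for *Adamts14* and 1.31 for *Loxl2* in the joint fit with bone chips described below.

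Proteins that act on procollagen inside the ER likewise differed in their calls. *P4ha1*, a catalytic subunit of prolyl 4-hydroxylase, had 338, 318 and 253 CPM in GFP+ (hi) cells, against 344, 324 and 332 CPM in GFP- cells (log2 fold change -0.14 ± 0.15), and *P4ha2* had a log2 fold change of -0.39 ± 0.15. *Serpinh1* (HSP47), the collagen chaperone, had 4518, 5469.7 and 5329 CPM in GFP+ (hi) cells, against 3853, 6222 and 4528 CPM in GFP- cells (log2 fold change 0.067 ± 0.21). As reported, these 3 genes were not called, although *Col1a1* differed 68.7-fold between the same libraries. *P4ha2* (edgeR adjusted p = 0.058) was called lower under 5 alternatives, among them DESeq2 (-0.41, DESeq2 adjusted p = 0.015) and leaving out GFP- replicate 3 (-0.45, edgeR adjusted p = 0.039). *Fkbp10* and *Crtap* were called higher (log2 fold changes 0.90 ± 0.16 and 0.56 ± 0.17), and *P4hb*, *Plod1* and *Plod3* were called lower (-0.51 ± 0.15, -0.45 ± 0.15 and -1.13 ± 0.14). Larger falls were found for *Colgalt2*, *Leprel1* and *P4ha3*, whose products glycosylate or hydroxylate collagen (-5.57 ± 0.52, -4.64 ± 0.25 and -4.51 ± 0.38).

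Of the genes of vesicle transport from the ER, some were called higher and none lower. COPII coats bud cargo vesicles off the ER, and of 17 COPII genes 8 were called higher, none lower and 9 were not called (median 0.50). *Sec24d*, a cargo-binding subunit, had 504, 480.4 and 399 CPM in GFP+ (hi) cells, against 220.1, 250.2 and 224 CPM in GFP- cells (log2 fold change 0.99 ± 0.15). *Sec31a*, an outer coat subunit, had 775, 728 and 664 CPM in GFP+ (hi) cells, against 293, 331 and 298 CPM in GFP- cells (log2 fold change 1.23 ± 0.15). For *Mia3* (TANGO1), which loads procollagen into these vesicles, the values were 132, 120.0 and 114 CPM in GFP+ (hi) cells, against 49.9, 43.7 and 52.5 CPM in GFP- cells (log2 fold change 1.32 ± 0.15). The groups did not overlap for these 3 genes, and each differed by close to 1 on the log2 scale.

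The paralogs of a COPII subunit were not alike in their calls. *Sec24d* and *Sec23a* (log2 fold change 0.87 ± 0.20) were called higher. *Sec24a*, *Sec24b* and *Sec24c* (0.55 ± 0.28, 0.47 ± 0.24 and 0.32 ± 0.14) and *Sec23b* (-0.21 ± 0.20) were not, and the differences between paralogs were not tested. Without GFP+ (hi) replicate 3, *Sec24a* (0.81, edgeR adjusted p = 0.0084) and *Sec24b* (0.67, edgeR adjusted p = 0.021) were called higher too. Leaving out that library or GFP- replicate 2 gave 11 COPII genes called higher, and leaving out any other single library gave 6 or 7. COPI coats carry cargo back to the ER, and of 14 COPI and KDEL receptor genes 4 were called higher, none lower and 10 were not called (median 0.29), a share of 28.6% called higher against 19.5% of all genes tested. The highest values there were those of *Kdelr1* and *Kdelr2* (1.56 ± 0.44 and 1.31 ± 0.14), receptors that retrieve escaped ER proteins. With GFP+ (hi) replicate 2 as the only GFP+ (hi) library, 5 COPII genes and 1 COPI gene were called higher.

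The study knocked down trafficking genes in a pre-osteoblast line. It had chosen them for being higher in GFP+ cells of these libraries among others, so their direction here is not independent evidence. All 15 of them on the list, which holds those the study singled out by the outcome of the knockdown, were called higher, with a median log2 fold change of 0.98. The smallest was *Golph3*, with 0.41, and the largest were *Aplp1* and *Ramp1*. *Aplp1* had 2074 counts in GFP+ (hi) cells and 39 counts in GFP- cells (log2 fold change 4.42). *Ramp1* had 92.2, 92.3 and 133 CPM in GFP+ (hi) cells, against 8.897, 5.48 and 6.66 CPM in GFP- cells (log2 fold change 3.91 ± 0.25). *Ramp1* encodes a partner of the calcitonin-like receptor. *Cog6* and *Pacs1* differed by 0.98 ± 0.22 and 0.99 ± 0.21. With GFP+ (hi) replicate 2 as the only GFP+ (hi) library, 10 of the 15 were called higher.

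The machinery that brings proteins into the ER differed little. Of 32 genes for translocation, signal peptidase and N-glycosylation, 4 were called higher, 2 lower and 26 were not called (median -0.018), shares below the background of 19.5% and 22.1%. When replicate 1 or 2 of GFP+ (hi) or replicate 1 or 3 of GFP- was left out, 1 gene was called higher. Leaving out replicate 3 of GFP+ (hi) gave 2 called higher, and leaving out replicate 2 of GFP- gave 5. ER chaperones leaned downward, with 3 of 26 called higher, 10 lower and 13 not called (median -0.31). *Hspa5* (BiP), the main ER chaperone, had 1076, 1018 and 839 CPM in GFP+ (hi) cells, against 1482, 1911 and 1368 CPM in GFP- cells (log2 fold change -0.70 ± 0.19). *Pdia6*, a disulfide isomerase, had 232, 215 and 162 CPM in GFP+ (hi) cells, against 651, 752 and 549.7 CPM in GFP- cells (log2 fold change -1.68 ± 0.19). *Hyou1*, another ER chaperone, went the other way, with 31.1, 26.8 and 23.2 CPM in GFP+ (hi) cells, against 3.95, 3.31 and 5.61 CPM in GFP- cells (log2 fold change 2.66 ± 0.26). Without GFP+ (hi) replicate 2, 6 chaperone genes were called lower, and with it as the only GFP+ (hi) library 5 were.

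**Figure D3:**
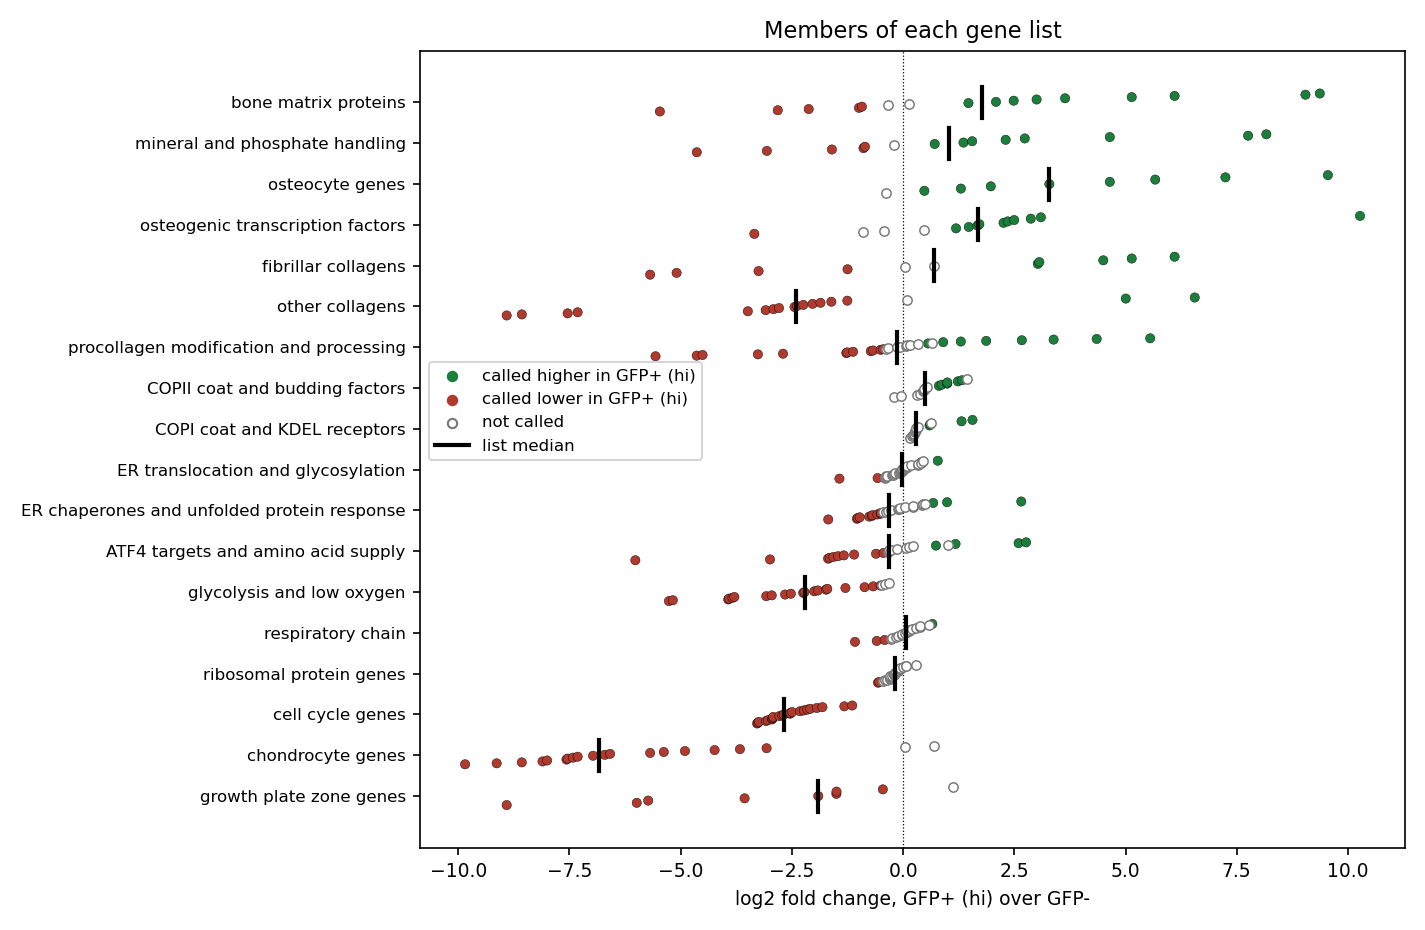
Log2 fold changes of GFP+ (hi) over GFP- cells for the tested members, with counts in both groups, of 18 gene lists; filled points were called higher (green) or lower (red), open points were not called and black bars are list medians. Osteocyte genes have a median of 3.29, glycolysis genes -2.22, cell cycle genes -2.68 and chondrocyte genes -6.84. Medians of ER translocation, ribosomal and respiratory chain genes are -0.018, -0.19 and 0.069, and that of ER chaperones is -0.31.

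Genes under the stress factor ATF4 and of amino acid supply split. Of 23 tested, 4 were called higher, 10 lower and 9 were not called (median -0.32). The serine synthesis genes *Psat1* and *Phgdh* were higher. *Psat1* had 68.4, 58.4 and 42.3 CPM in GFP+ (hi) cells, against 9.56, 9.71 and 8.64 CPM in GFP- cells (log2 fold change 2.60 ± 0.22), and *Phgdh* had 60.3, 66.2 and 57.4 CPM in GFP+ (hi) cells, against 33.4, 24.7 and 23.01 CPM in GFP- cells (log2 fold change 1.18 ± 0.18). *Pycr1*, of proline synthesis, rose by 0.74 ± 0.16 on the log2 scale and *Nupr1*, a stress-induced nuclear protein, by 2.77 ± 0.23. *Trib3*, a pseudokinase induced by ATF4, was almost absent from GFP+ (hi) cells, with 0.801, 1.43 and 0.241 CPM in GFP+ (hi) cells, against 58.5, 49.8 and 45.4 CPM in GFP- cells (log2 fold change -6.02 ± 0.42). The amino acid transporter genes *Slc1a5*, *Slc1a4*, *Slc7a5* and *Slc3a2* were called lower (-2.99 ± 0.20, -1.65 ± 0.17, -1.57 ± 0.25 and -0.61 ± 0.16), and *Asns* was not called (-0.32 ± 0.18).

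Glycolysis and the response to low oxygen were lower across the list. Of 23 genes, none was called higher, 20 were called lower and 3 were not called, with a median of -2.22 against -0.0013 over all tested genes. *Slc2a1* (GLUT1), the glucose transporter, had 13.6, 12.4 and 9.53 CPM in GFP+ (hi) cells, against 193, 187 and 163 CPM in GFP- cells (log2 fold change -3.93 ± 0.19). *Gapdh* had 108, 103 and 100.3 CPM in GFP+ (hi) cells, against 517, 431 and 555 CPM in GFP- cells (log2 fold change -2.27 ± 0.16). *Ldha*, which makes lactate, had 409, 399 and 391 CPM in GFP+ (hi) cells, against 1388, 1246 and 1270.2 CPM in GFP- cells (log2 fold change -1.70 ± 0.15). None of these groups overlapped.

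The fall spanned the pathway. *Pfkl*, *Pgk1*, *Tpi1*, *Pgam1* and *Pkm* were called lower (-2.52, -2.65, -2.22, -2.25 and -1.73), as were the oxygen-regulated *Car9*, *Bnip3*, *Egln3* and *Slc16a3* (-5.26, -3.92, -3.79 and -3.83). The members not called were *Ldhb*, *Hk2* and *Vegfa*, the last with 156, 139 and 133 CPM in GFP+ (hi) cells, against 164, 235 and 165 CPM in GFP- cells (log2 fold change -0.40 ± 0.18). *Eno1*, an enolase gene, had means of 0.159 CPM in GFP+ (hi) cells and 1.25 CPM in GFP- cells, so its value of -2.95 rests on 10 counts in GFP+ (hi) cells and 33 counts in GFP- cells. The chondrocyte list, described below, was higher in GFP- cells together with these genes, and its part in the glycolysis values was not tested.

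Mitochondrial and ribosomal genes differed little by comparison. Of 20 respiratory chain genes, 1 was called higher, 3 lower and 16 were not called (median 0.069), and *Cycs*, encoding cytochrome c, had the lowest value (-1.08 ± 0.21). Of 24 ribosomal protein genes, none was called higher, 2 were called lower, among them *Rpl5* (-0.56 ± 0.14), and 22 were not called (median -0.19). Without GFP+ (hi) replicate 2 none of the ribosomal genes was called, and without GFP- replicate 2 it was 5.

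Signalling genes differed by member. The background for the counts of signalling genes below was 19.5% of all tested genes called higher and 22.1% called lower. Secreted antagonists of Wnt, the ligand family that drives osteoblast formation through LRP5 and LRP6, had 3 of 10 called higher, 6 lower and 1 not called. Besides *Dkk1*, which could pass the filter only through GFP+ (hi) libraries, *Sfrp4* and *Dkk3* were higher (1.35 ± 0.21 and 0.88 ± 0.26). *Wif1* had 101, 94.2 and 76.8 CPM in GFP+ (hi) cells, against 339, 602 and 625 CPM in GFP- cells (log2 fold change -2.52 ± 0.25). *Sfrp5* had 0.0641, 0.0683 and 0.241 CPM in GFP+ (hi) cells, against 55.4, 43.6 and 44.2 CPM in GFP- cells (log2 fold change -8.53 ± 0.36), so that GFP+ (hi) cells held 8 counts of it in all.

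Of 22 Wnt ligands, receptors and targets, 8 were called higher, 5 lower and 9 were not called. *Lrp5* had 14.6, 21.2 and 12.7 CPM in GFP+ (hi) cells, against 1.87, 2.06 and 4.67 CPM in GFP- cells (log2 fold change 2.49 ± 0.40), and *Lrp4*, the receptor that presents sclerostin, had 20.6, 24.9 and 28.7 CPM in GFP+ (hi) cells, against 1.87, 1.48 and 1.99 CPM in GFP- cells (log2 fold change 3.79 ± 0.27). *Lrp6* was not called (0.16 ± 0.18). The target *Axin2* was not called either (1.25 ± 0.63), while *Nkd2* rose by 4.28 ± 0.26 and its relative *Nkd1* fell, with a value of -3.35 ± 0.29.

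In the bone morphogenetic protein (BMP) pathway, 8 of 28 genes were called higher, 12 lower and 8 were not called. *Bmp3*, a BMP-like ligand that restrains bone formation in mice, had 112, 97.8 and 108 CPM in GFP+ (hi) cells, against 0.33, 1.26 and 0.935 CPM in GFP- cells (log2 fold change 6.97 ± 0.31). The intracellular inhibitor *Smad6* had 79.4, 93.6 and 102 CPM in GFP+ (hi) cells, against 13.1, 9.59 and 15.4 CPM in GFP- cells (log2 fold change 2.85 ± 0.21), and the pseudoreceptor *Bambi* rose by 3.00 ± 0.20. Among secreted antagonists, *Nog* (noggin) had 0.513, 0.41 and 0 CPM in GFP+ (hi) cells, against 51.7, 36.7 and 46.1 CPM in GFP- cells (log2 fold change -7.09 ± 0.52), and *Grem1* had 0 counts in GFP+ (hi) cells and 3.84, 5.14 and 9.46 CPM in GFP- cells, at least 135-fold lower in GFP+ (hi) cells when 3 counts over the group are taken as its floor. The BMP targets *Id1* and *Id3* moved in opposite directions (-3.76 ± 0.35 and 1.84 ± 0.18).

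Hedgehog and parathyroid hormone genes had 1 of 10 called higher, 5 lower and 4 not called. *Ihh*, the hedgehog ligand of prehypertrophic chondrocytes, had 6.15, 3.62 and 1.06 CPM in GFP+ (hi) cells, against 297, 207 and 201 CPM in GFP- cells (log2 fold change -5.99 ± 0.52), and its targets *Ptch1*, *Gli1* and *Hhip* were also called lower (-1.26 ± 0.22, -2.30 ± 0.37 and -2.32 ± 0.34). *Pth1r*, the parathyroid hormone receptor, was not called, with 765, 843 and 983 CPM in GFP+ (hi) cells, against 1297, 874 and 1087 CPM in GFP- cells (log2 fold change -0.33 ± 0.19). Of 13 FGF genes, 3 were called higher (23.1%, near the background of 19.5%) and 5 lower (38.5%, against 22.1%). *Fgfr1* had 439, 477 and 485 CPM in GFP+ (hi) cells, against 86.9, 78.1 and 141 CPM in GFP- cells (log2 fold change 2.19 ± 0.23), whereas *Fgfr3*, the receptor that limits chondrocyte division, had 26.1, 26.1 and 43.7 CPM in GFP+ (hi) cells, against 426, 201 and 505 CPM in GFP- cells (log2 fold change -3.56 ± 0.36). *Fgfr2* was not called (-0.22 ± 0.16).

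Insulin-like growth factors (IGF) and TGF-beta are stored in bone matrix. Of 20 genes of these axes, *Tgfb1* was called higher (1.42 ± 0.23), 10 were called lower and 9 were not called. *Igf1* had 9.07, 17.3 and 7.12 CPM in GFP+ (hi) cells, against 39.7, 57.8 and 72.8 CPM in GFP- cells (log2 fold change -2.36 ± 0.35), and *Igf2* had 2.98, 4.44 and 1.11 CPM in GFP+ (hi) cells, against 116, 57.2 and 104 CPM in GFP- cells (log2 fold change -5.05 ± 0.46). Of 10 Notch genes, *Notch2* was called higher (1.52 ± 0.23) and 9 were not called. Among 12 factors that act on osteoclasts and marrow, *Kitl* and *Angptl4* were called higher (1.68 ± 0.50 and 1.97 ± 0.20), *Cxcl12*, *Efnb2* and *Il34* were called lower (-2.18 ± 0.37, -1.03 ± 0.28 and -2.91 ± 0.64), and *Tnfsf11* (RANKL), with means of 2.67 CPM in GFP+ (hi) cells and 1.09 CPM in GFP- cells, was not called (1.29 ± 0.72). The shares of these factors called, 16.7% higher and 25.0% lower, were near the background.

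Genes of cell contact had 4 of 10 called higher, 3 lower and 3 not called. *Cdh2* (N-cadherin) had 383, 338 and 329 CPM in GFP+ (hi) cells, against 0.22, 0.685 and 0.467 CPM in GFP- cells (log2 fold change 9.56 ± 0.28). *Cdh11*, the osteoblast cadherin, had 218, 195 and 180.1 CPM in GFP+ (hi) cells, against 8.68, 6.51 and 6.54 CPM in GFP- cells (log2 fold change 4.77 ± 0.19). *Gja1* (connexin 43), which joins osteoblasts and osteocytes through gap junctions, had 2337, 2331 and 2152 CPM in GFP+ (hi) cells, against 219.6, 262 and 188 CPM in GFP- cells (log2 fold change 3.35 ± 0.19). The groups were apart for each, and *Cdh2* was nearly absent from GFP- cells.

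*Cdh15* (M-cadherin), best known from muscle precursors, had 194, 257 and 232 CPM in GFP+ (hi) cells and 0 counts in all GFP- libraries, at least 1934-fold higher in GFP+ (hi) cells with the same floor. It could therefore pass the filter only through GFP+ (hi) libraries. Other skeletal muscle genes did not accompany it. *Acta1* and *Tnnt3* were called lower in GFP+ (hi) cells (-5.89 ± 0.82 and -4.64 ± 0.61), and *Myf5*, *Ckm* and *Myh1* had 0 counts in GFP+ (hi) cells. *Panx3*, a pannexin of hypertrophic chondrocytes and osteoblasts, was called lower (-1.91 ± 0.18).

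Of 15 metalloproteinases and inhibitors, 9 were called higher, 2 lower and 4 were not called (median 1.13). *Mmp16*, a membrane-type enzyme, had 219, 203 and 201 CPM in GFP+ (hi) cells, against 8.02, 14.4 and 8.18 CPM in GFP- cells (log2 fold change 4.34 ± 0.25). *Mmp2* had 1899, 1925 and 1721 CPM in GFP+ (hi) cells, against 447, 412 and 482 CPM in GFP- cells (log2 fold change 2.05 ± 0.16), and its activator *Mmp14* rose by 0.97 ± 0.14. *Mmp13*, the collagenase of hypertrophic cartilage and osteoblasts, had 99.6, 153 and 19.9 CPM in GFP+ (hi) cells, against 50.1, 34.7 and 39.3 CPM in GFP- cells (log2 fold change 1.13 ± 0.55). It was not called, and GFP+ (hi) replicate 3 lay below every GFP- library. *Timp3*, an inhibitor held in the matrix, had 41.7, 57.5 and 13.4 CPM in GFP+ (hi) cells, against 352, 445 and 330.4 CPM in GFP- cells (log2 fold change -3.33 ± 0.45).

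Most cartilage genes were called lower. Of 20 chondrocyte genes, none was called higher, 18 were called lower, and the *Col11a1* and *Col11a2* genes described above were not called (median -6.84). *Sox9*, the master regulator of chondrocytes, had 44.6, 45.3 and 38.6 CPM in GFP+ (hi) cells, against 1268, 1442 and 1135 CPM in GFP- cells (log2 fold change -4.90 ± 0.19). *Acan* (aggrecan), the main cartilage proteoglycan, had 34.8, 22.9 and 10.6 CPM in GFP+ (hi) cells, against 2033, 2011 and 3112 CPM in GFP- cells (log2 fold change -6.71 ± 0.47). *Comp*, of cartilage and tendon matrix, had 419.9, 348 and 104 CPM in GFP+ (hi) cells, against 6665, 3289.9 and 6480.4 CPM in GFP- cells (log2 fold change -4.24 ± 0.52). The GFP+ (hi) libraries ranked alike for *Acan*, *Comp* and *Col2a1*, with replicate 1 highest and replicate 3 lowest.

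*Lect1* (chondromodulin), which keeps vessels out of cartilage, had the largest fall of the list, with 8.52, 2.800 and 1.49 CPM in GFP+ (hi) cells, against 3763, 5157 and 3305 CPM in GFP- cells (log2 fold change -9.85 ± 0.68). *Matn3* had 5.45, 1.78 and 3.56 CPM in GFP+ (hi) cells, against 2289.5, 1963 and 2021 CPM in GFP- cells (log2 fold change -9.14 ± 0.41). *Prg4* (lubricin), made at the joint surface, was lower as well (-5.38 ± 0.41). Summed over the list, chondrocyte genes had 16643 to 19567 CPM in GFP+ (hi) libraries and 121137 to 237167 CPM in GFP- libraries. *Col11a1* and *Col11a2*, which were not called, made up most of each GFP+ (hi) sum, and *Col2a1* most of each GFP- sum.

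Genes of the growth plate zones gave a like picture. Of 9 tested, 8 were called lower and *Mmp13* was not called. *Col10a1*, specific to hypertrophic chondrocytes, had 2.66, 1.502 and 1.06 CPM in GFP+ (hi) cells, against 1078, 480.0 and 1057 CPM in GFP- cells, which is 127 counts in GFP+ (hi) cells and 23062 counts in GFP- cells. *Pthlh*, made by resting chondrocytes, had 0.288, 0.205 and 0 CPM in GFP+ (hi) cells, against 10.1, 8.79 and 9.81 CPM in GFP- cells (log2 fold change -5.73 ± 0.69). Outside the list, *Cdkn1c* (p57), a cell cycle inhibitor expressed in hypertrophic cartilage, had 53.9, 51.2 and 19.97 CPM in GFP+ (hi) cells, against 1602, 1736 and 1263 CPM in GFP- cells (log2 fold change -5.20 ± 0.39). The GFP- libraries thus held transcripts of resting, prehypertrophic and hypertrophic zones at once.

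Marker genes of the blood cells that fill marrow were detected at low levels. Summed B lymphoid genes (13 in the table) had 14.2 to 17.8 CPM in GFP+ (hi) libraries and 26.6 to 131 CPM in GFP- libraries, with GFP- replicate 1 the highest. *Cd79a*, part of the B cell receptor, had 0.385, 0.273 and 0.0481 CPM in GFP+ (hi) cells, against 29.99, 2.51 and 1.17 CPM in GFP- cells (log2 fold change -5.48 ± 1.27). Summed neutrophil genes (12) had 6.70 to 54.2 CPM in GFP+ (hi) libraries and 5.37 to 226 CPM in GFP- libraries, and *Mpo* (myeloperoxidase) had 1.09, 2.19 and 1.06 CPM in GFP+ (hi) cells, against 62.2, 0.114 and 0.117 CPM in GFP- cells. GFP- replicate 1 thus held more of these marrow transcripts than the other GFP- libraries. Without it, 1 of the B lymphoid genes was called lower in place of 3.

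Monocyte and macrophage genes (11) summed to 3.62 to 18.0 CPM in GFP+ (hi) libraries and 21.6 to 35.1 CPM in GFP- libraries, and 4 of them, *Emr1* and the complement genes *C1qa*, *C1qb* and *C1qc*, had 0 counts in GFP+ (hi) cells. Endothelial genes (11) summed to 2.50 to 3.59 CPM in GFP+ (hi) libraries and 12.3 to 17.1 CPM in GFP- libraries, and *Egfl7* had 0.032, 0.137 and 0 CPM in GFP+ (hi) cells, against 4.61, 3.43 and 3.27 CPM in GFP- cells. Erythroid (7) and megakaryocyte (6) genes summed to at most 27.9 CPM in any library. Of 5 osteoclast genes tested, *Ctsk* (cathepsin K) was called higher, with 109, 113 and 93.8 CPM in GFP+ (hi) cells, against 51.95, 36.9 and 56.7 CPM in GFP- cells (log2 fold change 1.12 ± 0.19), and *Nfatc1* was called lower (-2.52 ± 0.23), while *Dcstamp*, *Atp6v0d2* and *Tnfrsf11a*, which act in osteoclast formation, had 0 counts in GFP+ (hi) cells and 11, 5 and 8 counts in GFP- cells. The 10 osteoclast genes summed to 215 to 306 CPM in GFP+ (hi) libraries and 744 to 917 CPM in GFP- libraries, of which *Nfatc1* made up means of 128 CPM in GFP+ (hi) cells and 737 CPM in GFP- cells.

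Stromal and fibroblast genes were present in both populations. Of 10 marrow stromal and adipocyte genes, 3 were called higher (*Lepr*, *Pdgfra* and *Kitl*) and 6 lower, among them *Cxcl12* and *Vcam1*. Of 14 fibroblast, periosteal and tendon genes, the transcription factor genes *Scx*, *Prrx1* and *Mkx* and the tendon gene *Tnmd* were called higher (1.91 ± 0.23, 1.65 ± 0.19, 0.94 ± 0.22 and 1.21 ± 0.33) and 8 were called lower, with *Ly6a* (Sca-1) lowest (-6.41 ± 0.66). Without GFP- replicate 1, GFP- replicate 3 or GFP+ (hi) replicate 1, 5 of them were called lower.

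**Figure D4:**
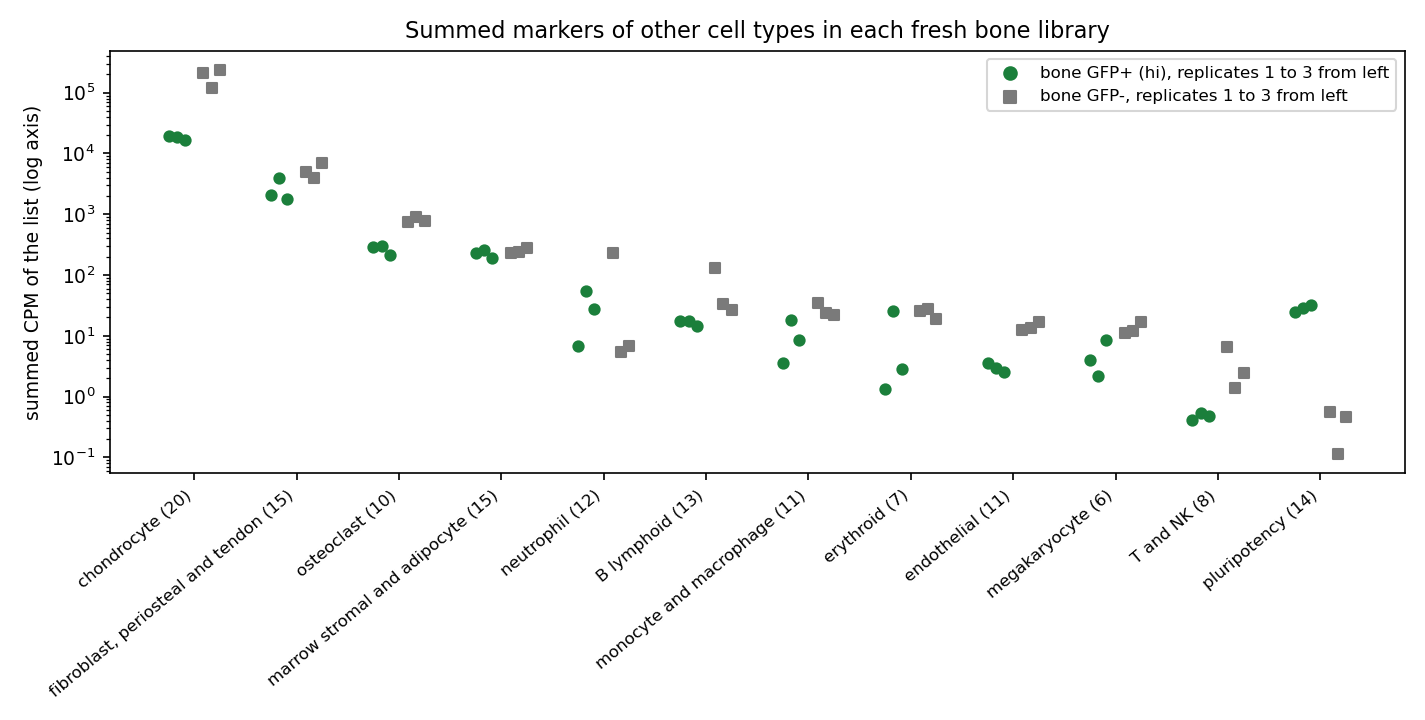
Summed CPM, on a log axis, of marker lists of other cell types in each fresh bone library, with the number of genes in the table in parentheses; green circles are GFP+ (hi) and grey squares GFP- libraries, replicates 1 to 3 from left to right. Chondrocyte genes reach 237167 CPM in GFP- libraries, neutrophil and lymphoid genes do not exceed 226 CPM, and pluripotency genes lie between 24.3 and 32.0 CPM in GFP+ (hi) libraries and at or under 0.549 CPM in GFP- libraries.

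A low signal of pluripotency genes was present in GFP+ (hi) libraries. The 14 genes in the table summed to 24.3 to 32.0 CPM in GFP+ (hi) libraries and 0.114 to 0.549 CPM in GFP- libraries, and 8 of them had 0 counts in GFP- cells. All 7 that passed the filter were called higher, though with so few GFP- counts they could pass only through GFP+ (hi) libraries. *Pou5f1* (Oct4) had 3.46, 3.35 and 4.43 CPM in GFP+ (hi) cells, against 0, 0.114 and 0 CPM in GFP- cells, and *Nanog* had 3.204, 4.03 and 4.09 CPM in GFP+ (hi) cells, against 0.11, 0 and 0.117 CPM in GFP- cells. *Dppa5a* had 6.02, 5.87 and 8.47 CPM in GFP+ (hi) cells, against 0, 0 and 0.35 CPM in GFP- cells. The values were alike in all 3 GFP+ (hi) libraries, and libraries derived from embryonic stem cells belong to the same series; the source of these counts was not tested. Without GFP+ (hi) replicate 2 or 3, 4 of these genes were called.

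Cell cycle genes were lower throughout. Of 23 tested, all were called lower, between -1.14 for *Mcm7* and -3.28 for *Aurka* (median -2.68), and the groups overlapped for none of them. *Cdk1* had 3.11, 3.62 and 3.95 CPM in GFP+ (hi) cells, against 28.01, 36.1 and 26.1 CPM in GFP- cells (log2 fold change -3.08 ± 0.23). *Mki67*, the proliferation marker Ki-67, had 4.68, 7.65 and 4.52 CPM in GFP+ (hi) cells, against 20.98, 18.3 and 19.5 CPM in GFP- cells (log2 fold change -1.81 ± 0.27). Of 10 cell cycle inhibitors, *Rb1* and *Rbl2* were called higher (1.43 ± 0.30 and 0.86 ± 0.24), *Cdkn1c*, *Cdkn2c* and *Rbl1* were called lower, and *Cdkn1a* (p21) was not called (0.0055 ± 0.15). *Rbl1* (-1.64, edgeR adjusted p = 0.0498) lost its call when any single GFP- library was left out (edgeR adjusted p from 0.087 to 0.13).

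The 15 largest rises included several genes outside the lists. The ranking took called genes with at least 10 CPM in the higher group, over 3 counts in the lower group and groups not overlapping. *Lipc* (hepatic lipase) had 203, 204 and 210.4 CPM in GFP+ (hi) cells, against 0, 0 and 0.467 CPM in GFP- cells. *Slc36a2*, a proton-coupled amino acid transporter, had 386, 369 and 397 CPM in GFP+ (hi) cells, against 0.439, 0.114 and 0.35 CPM in GFP- cells. *Car3*, carbonic anhydrase 3 of muscle and fat, had 2076, 1488 and 2692 CPM in GFP+ (hi) cells, against 9.995, 1.03 and 1.75 CPM in GFP- cells. Each was nearly restricted to GFP+ (hi) libraries, with log2 fold changes of 10.33 ± 0.46, 10.27 ± 0.28 and 8.92 ± 0.76. *Lipc* and *Slc36a2* could pass the filter on low counts only through GFP+ (hi) libraries, and the size of their rises rests on few GFP- counts.

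*Entpd3*, an enzyme that hydrolyses extracellular ATP, had 447, 432 and 529.9 CPM in GFP+ (hi) cells, against 0.659, 0.914 and 1.29 CPM in GFP- cells (log2 fold change 8.94 ± 0.26). *Slc9a2*, a sodium-proton exchanger, *Ppfia2*, *Lingo3* and *Ankrd6* completed the ranking, with log2 fold changes of 8.71 ± 0.34, 8.34 ± 0.29, 8.28 ± 0.33 and 7.90 ± 0.43. Their GFP- libraries held 4 to 6 counts in all per gene, against 2566 to 6425 counts in GFP+ (hi) cells. The size of these rises therefore rests on few GFP- counts. *Slc9a2*, *Ppfia2*, *Lingo3* and *Ankrd6* could pass the filter only through GFP+ (hi) libraries.

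The 15 largest falls included the cartilage genes *Lect1*, *Matn3*, *Col10a1*, *Col9a3*, *Matn1* and *Mia*, and also *Ucma*, a Gla-rich protein of upper growth plate cartilage (1.86, 0.41 and 0.289 CPM in GFP+ (hi) cells, against 259, 275 and 298 CPM in GFP- cells). Others were less usual. *Arsi*, a sulfatase gene, had 0, 0.478 and 0 CPM in GFP+ (hi) cells, against 69.6, 36.8 and 73.4 CPM in GFP- cells. *Krt16*, a keratin of stressed epidermis, had 0.32, 0 and 0 CPM in GFP+ (hi) cells, against 43.1, 49.2 and 59.1 CPM in GFP- cells. The GFP- libraries were alike for *Krt16*, none lacking it.

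*Ppp1r1b* (DARPP-32), a phosphatase inhibitor known from neurons, had 0.481, 0.273 and 0 CPM in GFP+ (hi) cells, against 85.9, 89.3 and 74.8 CPM in GFP- cells (log2 fold change -8.19 ± 0.48). *Mfi2* (melanotransferrin), an iron-binding surface protein, had 3.33, 1.16 and 0.337 CPM in GFP+ (hi) cells, against 501, 526 and 586 CPM in GFP- cells (log2 fold change -8.27 ± 0.61). *Ncmap*, a myelin-associated protein, had 1.25, 0.546 and 0.0963 CPM in GFP+ (hi) cells, against 191, 189.8 and 187 CPM in GFP- cells. These genes were low in GFP+ (hi) cells in the same order as *Acan*, with replicate 1 highest and replicate 3 lowest. *Bpifb1*, *Slc6a12* and *Sfrp5* filled the rest of the ranking.

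Immediate early and heat shock genes respond to tissue dissociation among other stimuli. Of 13, 5 were called higher (*Zfp36*, *Ier3*, *Atf3* and the near-identical pair *Hspa1a* and *Hspa1b*, whose reads cannot be told apart), *Nr4a1* was called lower (-1.52 ± 0.15) and 7 were not called, among them *Fos* and *Egr1* (0.36 ± 0.15 and -0.13 ± 0.18). Genes often used as references were not level here. Of 7, *Actb* and *B2m* were called higher (0.74 ± 0.20 and 1.95 ± 0.17), *Gapdh*, *Ppia* and *Hprt* were called lower (-0.99 ± 0.15 for *Ppia* and -1.31 ± 0.19 for *Hprt*), and *Tbp* was not called (-0.81 ± 0.30). The ribosomal RNA precursor *Rn45s*, a measure of ribosomal RNA carried through poly-A selection, was called higher (2.06 ± 0.45), at 0.139% to 0.342% of GFP+ (hi) counts and 0.0561% to 0.146% of GFP- counts.

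To see where the GFP difference of fresh bone departs from that of cultured cells, both were fitted together with the 6 bone chip libraries, in which bone chips of Col2.3GFP mice had been put through osteogenic differentiation in culture before GFP+ (hi) and GFP- cells were sorted. Of 13574 genes tested, the GFP+ (hi) minus GFP- log2 fold change was larger in fresh bone for 1991 (14.7%) and smaller for 2117 (15.6%). Bone genes differed between the sources in both directions. Of 16 bone matrix genes 9 were positive and 3 negative past the threshold, of 10 osteocyte genes 3 were positive and 1 negative, and of 14 mineral and phosphate genes 4 were positive and 6 negative. *Col1a1* differed between the sources by 3.50 ± 0.44, *Bglap* by 5.54 ± 0.50 and *Dmp1* by 3.96 ± 0.59 on the log2 scale. The GFP+ (hi) minus GFP- log2 fold change was smaller in fresh bone for *Mepe* (-3.61 ± 0.61), *Smpd3* (-3.47 ± 0.24), *Phospho1* (-2.42 ± 0.46), a phosphatase of matrix vesicles, and *Alpl* (-1.18 ± 0.23). *Col2a1* differed by -5.72 ± 0.57, its log2 fold change in bone chips being 0.047. The chip libraries carried far more *Rn45s*, 8.01% to 12.5% of their counts, and its part in these differences was not tested.

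The chondrocyte and glycolysis lists differed between the sources. Of 20 chondrocyte genes, 18 had a negative difference between sources past the threshold and none a positive one, with medians of -6.83 in fresh bone and -0.72 in bone chips. Of 23 glycolysis genes, 19 were negative and 1 was positive, with medians of -2.21 in fresh bone and 0.56 in bone chips in the joint fit. *Gapdh*, for instance, had a log2 fold change of 0.97 in bone chips, a difference between sources of -3.23 ± 0.30. For COPII genes, 2 of 17 were positive and none negative, below the background of 14.7% and 15.6%, and the medians were 0.51 in fresh bone and 0.55 in bone chips.

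Among genes called in fresh bone, the largest positive differences between sources included *Clec14a*, *Fbn2*, *Rcan2* and *Angpt2*. *Fbn2* (fibrillin 2) was higher in GFP+ (hi) cells of fresh bone (log2 fold change 3.72 ± 0.21) and had -4.42 in bone chips, a difference of 8.15 ± 0.40. *Clec14a*, a lectin-like surface protein best known from endothelium, had 59.6, 41.6 and 44.3 CPM in GFP+ (hi) cells, against 2.197, 2.28 and 0.818 CPM in GFP- cells of fresh bone, and a log2 fold change of -3.99 in bone chips. Bone chip GFP+ (hi) libraries held at most 0.619 CPM of *Clec14a*, so the size of its difference rests on few counts. *Rcan2* and *Angpt2* had differences of 7.61 ± 0.40 and 7.47 ± 0.72. Bone chip levels of *Angpt2* were 0.817, 0.288 and 0.757 CPM in GFP+ (hi) cells, against 1.57, 1.96 and 1.18 CPM in GFP- cells. Fresh bone GFP- libraries held at most 0.542 CPM of *Angpt2* in the same fit, so its difference between sources rests on few counts. *Sstr1* was also ranked, but a bone chip group held 0 counts of it and no value is given.

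The largest negative differences were those of *H2-Ab1*, *Col10a1*, *Nog*, *Batf3* and *Col9a3*. *H2-Ab1*, a class II histocompatibility chain, had 0.224, 0 and 0 CPM in GFP+ (hi) cells, against 22.3, 25.6 and 17.9 CPM in GFP- cells of fresh bone, and a log2 fold change of 1.79 in bone chips. *Batf3*, a transcription factor known from dendritic cells, had 0.256, 0.0683 and 0.722 CPM in GFP+ (hi) cells, against 19.6, 19.2 and 25.7 CPM in GFP- cells of fresh bone, and a log2 fold change of 3.21 in bone chips. The bone chip levels of *Batf3* were low in both groups, at 1.88, 2.16 and 1.44 CPM in GFP+ (hi) cells, against 0.0749, 0.212 and 0.244 CPM in GFP- cells, so that its difference between sources rests on few counts. *Nog* had a log2 fold change of -7.09 in fresh bone and 2.01 in bone chips. GFP+ (hi) cells of fresh bone held few counts of *H2-Ab1* and *Nog*, so the size of both differences rests on few counts.

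**Figure D5:**
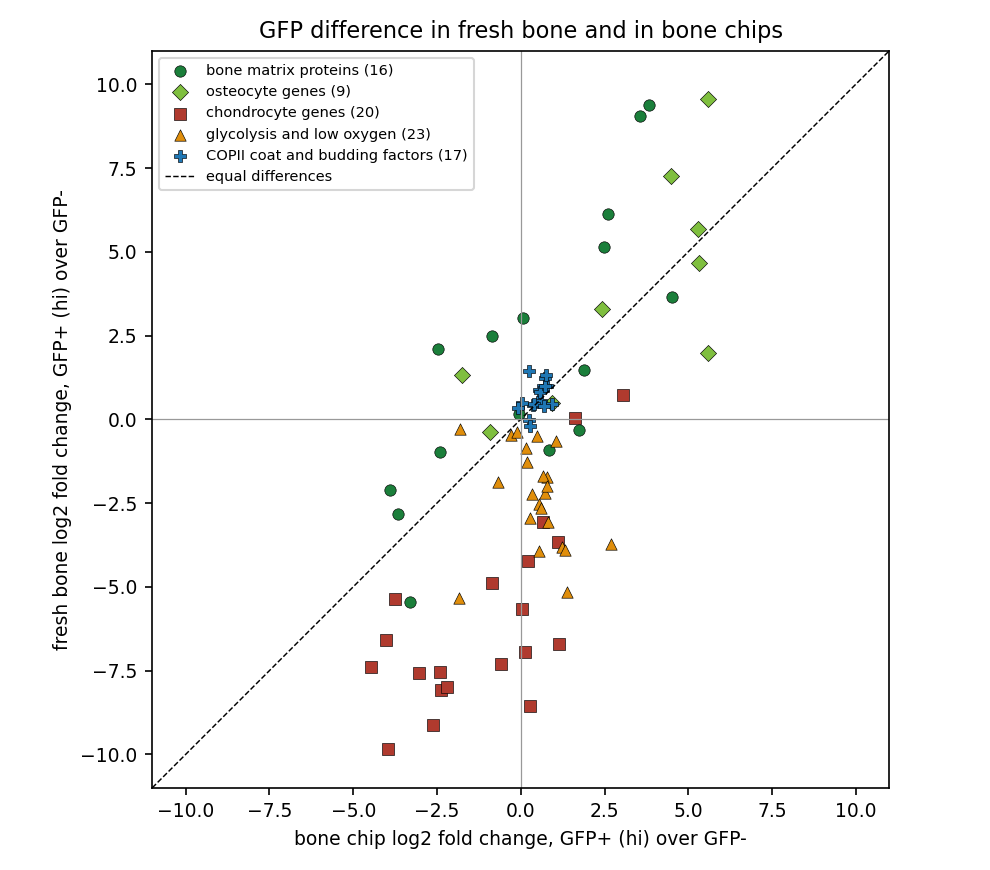
Log2 fold change of GFP+ (hi) over GFP- cells in fresh bone (vertical axis) against the same in bone chips (horizontal axis), from 1 fit of 12 libraries, for the members of 5 gene lists with counts in every group; the dashed line marks equal differences. Glycolysis and chondrocyte genes lie mostly below the line, with fresh bone medians of -2.21 and -6.83, and COPII genes lie near the origin in both sources.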

How the data were processed

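RNA from 3 GFP+ (hi) and 3 GFP- fresh bone libraries was measured by poly-A RNA-seq. The authors deposited raw counts per gene, not normalized, in 1 table per source. The submitters' processing notes name STAR 2.4.2a, mm9, DESeq2 and R 3.2.2. The counting tool, its use of strand and its handling of reads matching several places are not given in the sources used here. The library kit does not mark strand, so overlapping antisense genes cannot be told apart.

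The bone table was normalized on its own. Any gene nearly absent from a group could pass the filter on low counts only through the other group. Low genes were removed with filterByExpr (minimum count 10), libraries were scaled by TMM and genes tested with the quasi-likelihood test of edgeR 4.0.16 in R 4.3.3, with Benjamini-Hochberg adjustment and a threshold of 0.05. All log2 fold changes of fresh bone are GFP+ (hi) over GFP- with their standard error after ±, and CPM uses TMM-scaled library sizes. Fresh bone and bone chips were compared through an interaction term in 1 fit of 12 libraries. DESeq2 1.42.0 served as an alternative, as did other scalings, filters, a replicate block, thinning, a test against a fold of 2 and leaving out each library. The test was checked on simulated data.

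Genes were named by rule: the 4 markers, key genes of 46 lists, up to 4 called members per list and direction, the 15 largest rises and falls (at least 10 CPM in the higher group, over 3 counts in the lower group, groups not overlapping), the 10 genes with most counts per group, the 5 largest interactions per direction, and near-identical copies. Further list members and the sex-linked transcripts were named after their values were seen. The members and lists were chosen with earlier results of these data known. Of 687 listed genes, 20 were not analysed here. Some genes that the rule names are not reported here.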

Additional observations from a re-analysis of the deposited data

Results flagged for a closer look

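The GFP difference was not the same in fresh bone and in bone chips. By the interaction term of the joint edgeR fit, the log2 fold change of GFP+ (hi) over GFP- was larger in fresh bone for 1991 genes and smaller for 2117 genes of 13574 tested. Fresh bone minus bone chip differences were 3.50 for *Col1a1*, 5.54 for *Bglap*, 3.96 for *Dmp1* and -5.72 for *Col2a1*. They were 8.77 for *Clec14a*, 8.15 for *Fbn2*, 7.61 for *Rcan2* and 7.47 for *Angpt2*. On the negative side they were -9.44 for *H2-Ab1*, -9.43 for *Col10a1*, -9.09 for *Nog*, -9.07 for *Batf3*, -8.83 for *Col9a3*, -3.23 for *Gapdh*, -3.61 for *Mepe*, -3.47 for *Smpd3*, -2.42 for *Phospho1* and -1.18 for *Alpl*. All of these are listed because the difference between sources itself passed the test. Those of *Angpt2* and *Batf3* rest on few counts, as do those of *H2-Ab1*, *Nog* and *Clec14a*. In the joint fit *H2-Ab1* and *Nog* had at most 0.262 and 0.600 CPM in fresh bone GFP+ (hi) cells. *Clec14a* had at most 0.619 CPM in bone chip GFP+ (hi) cells. *Rn45s* took 8.01% to 12.5% of bone chip counts and at most 0.342% of fresh bone counts, and its part was not tested.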

How the results depend on the processing

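The reported fit called 2455 genes higher and 2776 lower. Testing against a fold of 2 left 839 higher and 1467 lower, and using only the GFP+ (hi) library with Y-linked transcripts, an alternative chosen after seeing the data, left 1495 higher and 1793 lower. Both have stricter or smaller designs by construction. Leaving out 1 library at a time gave 1932 to 2408 genes higher and 2186 to 2814 lower, and for the difference between sources 1552 to 2275 positive and 1639 to 2270 negative. DESeq2 called 2499 higher and 2983 lower. Samples with the same replicate number did not deviate together (r = -0.0125, -0.0217 and 0.0305), so the numbers were not taken as a pairing. With the replicate block, 2160 genes were called higher and 2494 lower in fresh bone, and 1869 positive and 2013 negative between sources. No fresh bone call was made in the opposite direction under any of these alternatives. Of 254 named genes, 65 changed their call under at least 1 alternative. *Mpo*, not called as reported (log2 fold change -3.89, edgeR adjusted p = 0.077), was called higher without GFP- replicate 1 (3.57, edgeR adjusted p = 0.032), and its values ran from -4.46 to 3.57 as libraries were left out in turn. *Plod1*, *Golph3*, *P4hb* and *Col3a1* lost their call under 8 or 9 alternatives each. GFP- libraries held 5482065 to 6468750 counts, so genes absent from them are known only to that depth.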
